A study of Homo sapiens with 13 samples.

Results

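The 5 h response to BMP4 given with IWP2 was read from 2 of the 13 libraries of the series, both made from RUES2 human embryonic stem cells that express a GFP::SMAD4 fusion. The first library came from cells given 100 ng/mL BMP4 and 5 µM IWP2, an inhibitor of Wnt secretion, together with ROCK inhibitor (RI) and 0 nM of LDN-193189 (LDN), a small-molecule inhibitor of the type I BMP receptors. The second came from untreated cells, labelled mTeSR, the maintenance medium. RI is named in the treated cells' label and in the protocol for growth and treatment media, but not in the untreated label, so the parts of BMP4, IWP2 and RI in a difference cannot be told apart. Both libraries were made from polyA-selected RNA of 1 line and were counted over all 61541 human genes of the table, of which 14893 averaged 1 CPM (counts scaled to the same total in each library) or more over the 2 libraries and were compared.

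The other 4 libraries of the same experiment with BMP4, IWP2 and RI, which had 10, 30, 100 or 300 nM LDN, entered only where stated. So did 3 libraries of a time series under the same BMP4 and IWP2 doses, 2 at 0 h and 1 at 4 h, made from rRNA-depleted RNA with another extraction kit. The label of the 0 h libraries names the agents too, and they were read as cells at the start of treatment, so every difference between 4 h and 0 h rests on that reading. The comparison has 1 library a side and thus no replicate check, and no p-value is given. A gene is called higher or lower when its log2 ratio, with 0.1 CPM added to both values, is at least 1 in size. In bulk RNA a larger share of responding cells and more RNA per cell cannot be told apart. Ratios are followed in parentheses by their 95% interval, which covers counting error only and not the variation between cultures.

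The untreated library was the shallower one, with 15600645 counts against 28742320 with BMP4 and IWP2, a ratio of 1.84. A floor of 3 counts was 0.192 CPM in the untreated library and 0.104 CPM in the treated one. Mitochondrial transcripts took 7.89% of the untreated counts and 4.22% to 4.49% in the 5 libraries with BMP4. The same share was 7.60% and 4.29% in the 2 libraries at 0 h, so it also differed between replicates. Among 8 defining markers of human pluripotent stem cells, all were expressed in both libraries, from 90.6 CPM (NANOG with BMP4) to 2391 CPM (POU5F1 with BMP4). Counts assigned to the GFP sequence came to 12.9 CPM with BMP4 and 18.3 CPM in untreated cells.

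BMP ligands bind a complex of type I and type II receptor kinases, which phosphorylate SMAD1, SMAD5 and SMAD9. These join SMAD4, enter the nucleus and act on target genes, among them the ID genes and several inhibitors of the pathway itself. In human pluripotent stem cells BMP4 directs differentiation toward amnion-like cells, while Wnt and Nodal, which BMP4 otherwise induces, are needed for primitive streak-like cells.

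In all, 894 genes (6.0% of those compared) were at least 2-fold higher with BMP4 and IWP2 and 326 (2.19%) at least 2-fold lower. These shares are the background for every count of called list members below. Of the higher genes 201 differed at least 4-fold and 58 at least 16-fold, while of the lower genes 62 and 16 did. The median log2 ratio of all compared genes was 0.10. The genes nearest the threshold were SCARF2 at 1.001 just inside and SSC5D at 0.999 just outside, and on the other side an unnamed gene (ENSG00000283228) at -1.001 inside and TENT5B at -0.999 outside. As a measure of the spread between cultures in the other protocol, the 2 libraries at 0 h differed at least 2-fold at 186 of the same genes (1.25%).

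**Figure D1:**
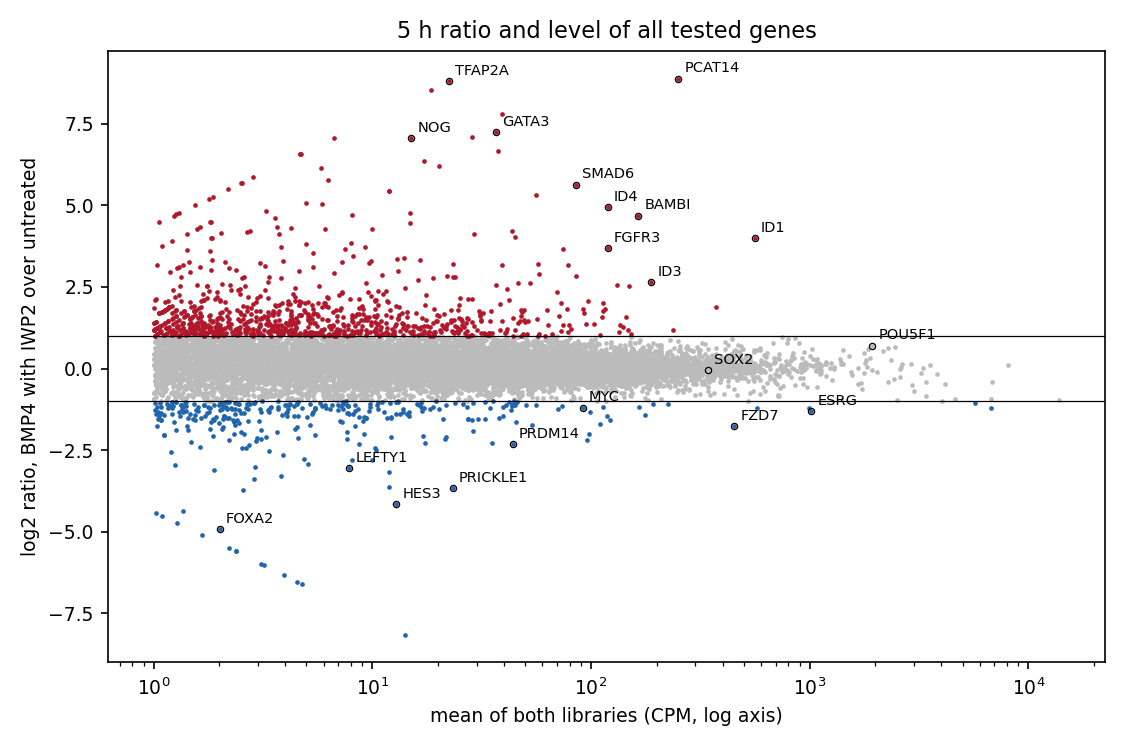
Log2 ratio of BMP4 with IWP2 over untreated at 5 h (vertical axis) against the mean CPM of both libraries (horizontal axis, log scale), 1 point per compared gene, with genes at least 2-fold higher in red and lower in blue (horizontal lines at 1 and -1). The red points reach 8.88 (PCAT14), and named genes of the BMP pathway and of early amnion stand far above the cloud while SOX2 lies at -0.04.

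The start sites of 3 genes that stand high in the comparison are shown to place the response on the genome: ID1, a direct BMP target in many cell types, BAMBI, a decoy receptor, and GREM1, a secreted antagonist. Each window runs from 250 bases before to 50 bases after a RefSeq start (build GRCh38.p14, all on the + strand), at chr20:31605039-31605338 for ID1, chr10:28677271-28677570 for BAMBI and chr15:32717754-32718053 for GREM1. Capitals mark GGCGCC, the core of a GC-rich element known to bind SMAD proteins, which reads the same on both strands.
ID1: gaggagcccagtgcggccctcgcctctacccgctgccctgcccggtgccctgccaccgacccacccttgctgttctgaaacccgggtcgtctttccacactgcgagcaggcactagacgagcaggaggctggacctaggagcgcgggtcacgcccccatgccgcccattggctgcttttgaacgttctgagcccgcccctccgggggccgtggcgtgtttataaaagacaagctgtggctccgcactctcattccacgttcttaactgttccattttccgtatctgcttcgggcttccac
BAMBI: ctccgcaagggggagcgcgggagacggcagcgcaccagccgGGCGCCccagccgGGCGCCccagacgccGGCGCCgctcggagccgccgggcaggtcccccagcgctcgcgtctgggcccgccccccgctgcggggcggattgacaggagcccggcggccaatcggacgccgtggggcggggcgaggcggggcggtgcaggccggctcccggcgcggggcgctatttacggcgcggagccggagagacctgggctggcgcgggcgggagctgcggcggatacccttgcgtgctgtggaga
GREM1: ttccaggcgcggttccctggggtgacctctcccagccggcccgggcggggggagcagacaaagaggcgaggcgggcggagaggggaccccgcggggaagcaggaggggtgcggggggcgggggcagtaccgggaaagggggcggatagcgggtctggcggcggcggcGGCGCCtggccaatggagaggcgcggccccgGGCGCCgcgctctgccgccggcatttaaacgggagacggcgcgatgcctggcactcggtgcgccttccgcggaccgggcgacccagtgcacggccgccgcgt
The BAMBI window held 3 copies of GGCGCC, the GREM1 window 2 and the ID1 window 0. Over all 35116 windows of the reference, 19.2% held it. Counting a gene as positive when any of its windows did, the share was 37.1% of the 11010 compared genes with a window, 45.1% of 539 higher genes and 27.8% of 180 lower genes. The related letters GGAGCC, on either strand, occurred in 54.1%, 60.5% and 56.7% of the same genes. The higher genes were also richer in GC, with 348 of 894 in the GC-richest of 4 equal bins of compared genes against 131 in the poorest, and its part in the motif shares was not tested. A match is a description of these letters and not evidence of binding.

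All 4 ID genes, which encode inhibitors of basic helix-loop-helix factors, were higher with BMP4 and IWP2. ID1 (chr20:31605283-31606515) had 1055 CPM against 65.6 CPM in untreated cells, a ratio of 16.1 (15.1 to 17.1), with 1000.1, 843, 616 and 376 CPM at 10, 30, 100 and 300 nM LDN. ID3 (chr1:23557926-23559501) had 325 against 51.5 CPM, a ratio of 6.32 (5.88 to 6.80), and 328, 297, 223 and 142 CPM over the LDN doses. Every library with BMP4, including that with 300 nM LDN, thus stood above the untreated one for these genes. The relative differences were larger for ID4, with 231 against 7.37 CPM and a ratio of 31.3 (26.0 to 38.0), and ID2 lay between with 142 against 15.6 CPM and a ratio of 9.10 (7.99 to 10.4). At 4 h of the time series the log2 ratios over 0 h were 3.97 for ID1, 2.88 for ID2, 3.01 for ID3 and 4.07 for ID4.

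Inhibitors that act inside the cell or at the receptor were unequal in their response. Of 8 such genes 3 were higher and none lower, with all 8 ratios above 1, or 6 of 8 under TMM or DESeq2 scaling. SMAD6 (chr15:66702236-66782849), an inhibitory SMAD, had 167 CPM with BMP4 and IWP2 and 3.27 CPM untreated, a ratio of 51.1 (38.8 to 68.7). Its levels at 10, 30, 100 and 300 nM LDN were 101, 57.1, 27.3 and 11.1 CPM. BAMBI (chr10:28677510-28682932) had 317 against 12.2 CPM, a ratio of 25.9 (22.4 to 30.0), and 279, 214, 114 and 49.3 CPM with LDN. The other inhibitory SMAD, SMAD7, differed less, at 76.4 against 22.0 CPM and a ratio of 3.47 (3.10 to 3.90). The other 5, among them the ubiquitin ligases SMURF1 and SMURF2 and the corepressors SKI and SKIL, had log2 ratios of 0.04 to 0.49.

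Several secreted antagonists, which bind BMP ligands outside the cell, were near 0 untreated and clearly counted with BMP4 and IWP2. Of 9 genes 7 passed the level filter, 3 of them only through the treated library, and 4 were higher and none lower. NOG (chr17:56593699-56595611), which encodes noggin, had 30.1 CPM with BMP4 and IWP2 and 2 counts (0.128 CPM) untreated, a ratio of 235 (64.8 to 1942), and fell along the LDN doses through 13.7, 4.89 and 1.42 to 0.241 CPM. GREM1 (chr15:32718004-32745106) had 23.5 against 0.449 CPM, a ratio of 52.3 (25.3 to 131), and 17.7, 14.2, 7.78 and 3.35 CPM with LDN. At 300 nM LDN NOG was thus at the level of a few counts while GREM1 was still above untreated. CHRD, which encodes chordin, had 2.85 against 1.22 CPM, a ratio of 2.34 (1.41 to 4.09). FST, FSTL3 and TWSG1 had log2 ratios of 0.13 to 0.54.

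Of the ligands themselves 4 of 9 passed the filter. BMP7 was higher at 38.7 against 5.38 CPM, a ratio of 7.19 (5.76 to 9.09), and reached 5.61 CPM at 300 nM LDN. Transcripts of BMP4 were higher at 16.1 against 5.83 CPM, a ratio of 2.76 (2.20 to 3.50). BMP2 went the other way, at 2.68 against 6.09 CPM, 2.27-fold lower (1.67 to 3.11), and rose with LDN from 3.24 CPM at 10 nM to 5.01 CPM at 300 nM. In the time series BMP7 and BMP2 moved in these directions too, with log2 ratios of 2.3 and -1.26 at 4 h, while BMP4 had 0.29.

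Among 11 receptors and SMAD transducers 2 were higher and 1 lower, beside 6.0% and 2.19% of all compared genes. SMAD9, a receptor-activated SMAD of the BMP branch, had 23.7 CPM against 2.24 CPM, a ratio of 10.6 (7.52 to 15.3), and 13.4, 9.13, 3.70 and 2.47 CPM with rising LDN. The other receptor-activated SMADs of that branch stayed near their untreated level, with log2 ratios of 0.16 for SMAD1 and -0.10 for SMAD5. SMAD4, the tagged partner, had 101 against 99.2 CPM, a ratio of 1.02 (0.956 to 1.08). The type I receptor BMPR1A was called at 184 against 85.6 CPM, a ratio of 2.15 (2.03 to 2.29), whereas ACVR1 and the type II receptor BMPR2 had ratios of 1.58 (1.35 to 1.85) and 1.59 (1.42 to 1.77). SMAD3, of the Nodal and activin branch, was lower at 8.73 against 17.6 CPM, 2.02-fold (1.69 to 2.40), just past the threshold.

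**Figure D2:**
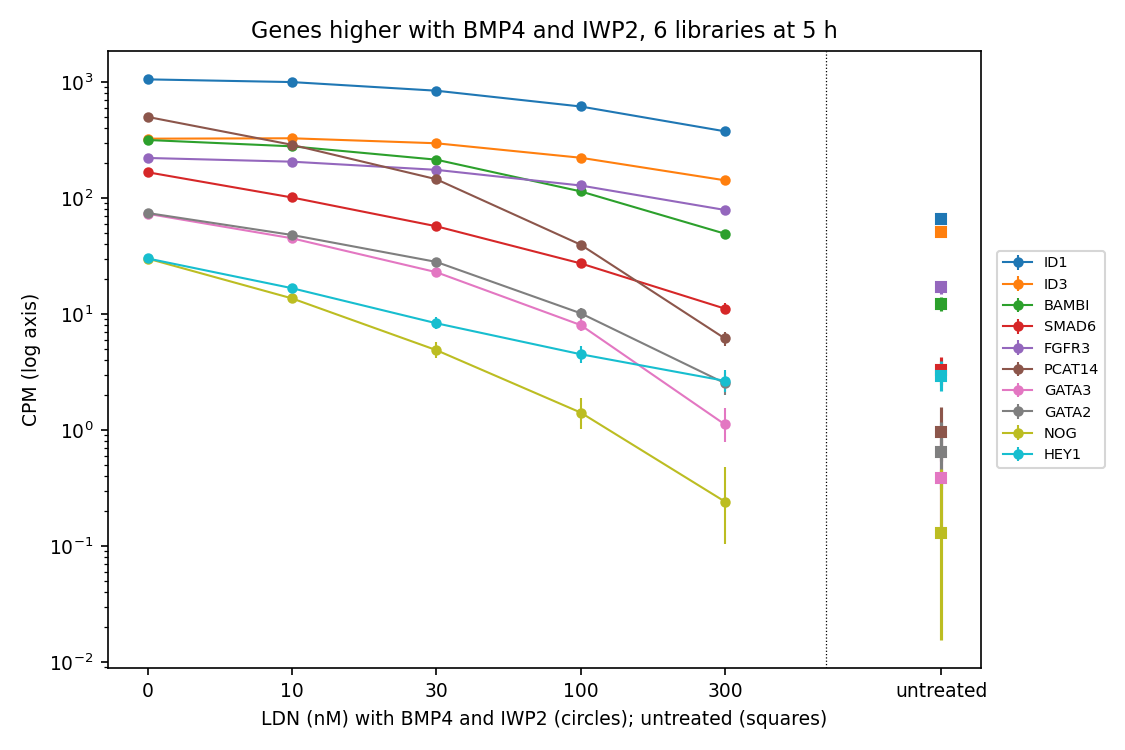
CPM (vertical axis, log scale) of 10 genes in the 5 libraries with BMP4 and IWP2, ordered by LDN dose (circles), and in untreated cells (squares), with 95% counting intervals as bars. Levels fall from left to right, except that ID3 has 325 CPM at 0 nM and 328 CPM at 10 nM. Those of NOG and HEY1 at 300 nM (0.241 and 2.65 CPM) lie near their untreated squares while ID1 (376 CPM) stays well above its own.

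Transcription factors listed for early amnion held some of the largest ratios. Of 21 genes 9 passed the filter and were higher, but 7 of the 9 were under 1 CPM in untreated cells and passed only through the treated library, so that they had to differ and their count is no result about the list. TFAP2A (chr6:10393186-10419659), an AP-2 factor of surface ectoderm and amnion, had 44.8 CPM with BMP4 and IWP2 and 0 counts in untreated cells, which makes it at least 233-fold higher when the untreated library is set to 3 counts. It fell to 27.6, 13.4, 3.63 and 0.543 CPM over the LDN doses. GATA3 (chr10:8045378-8075198) had 73.2 against 0.385 CPM, a ratio of 190.3 (87.3 to 519), and 45.0, 23.0, 8.04 and 1.12 CPM with LDN. The sister factor GATA2 (chr3:128479427-128493201) had 74.3 against 0.641 CPM, a ratio of 116 (62.9 to 242), and 48.1, 28.2, 10.2 and 2.53 CPM with LDN. In untreated cells the 3 factors had 0, 6 and 10 counts, and in the treated library 1288, 2104 and 2136.

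The homeobox gene MSX2 followed with 40.01 against 0.449 CPM and a ratio of 89.2 (43.1 to 222), and GRHL3, a grainyhead-like factor of surface epithelium, with 28.7 against 1.22 CPM and a ratio of 23.5 (14.98 to 39.3). HAND1 and DLX6 had 3.76 and 2.47 CPM with BMP4 and 0 counts without, at least 19.5-fold and 12.8-fold higher. TFAP2C was already present in untreated cells, at 5.90 CPM, and had 42.0 CPM with BMP4, a ratio of 7.12 (5.75 to 8.89). The other 12 list members did not pass the filter, so the 9 are not the whole list. Among those left out ISL1, a later amnion marker, had 28 counts (0.974 CPM) with BMP4 and 2 counts (0.128 CPM) untreated, a ratio of 7.60 (1.92 to 65.8). At 4 h all 9 factors were at least 2-fold above 0 h, beside 4.38% of all compared genes, and ISL1 had a log2 ratio of 0.04. Because 7 of the 9 entered through high values under the same agents, this count too is no result about the list.

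Outside these lists the highest ratio at an average of 10 CPM or more belonged to PCAT14 (chr22:23536881-23547797), a long non-coding RNA. It had 501 CPM with BMP4 and IWP2, 288, 145, 39.7 and 6.15 CPM over the LDN doses and 0.961 CPM untreated, a ratio of 521 (316 to 931). Another long non-coding RNA, LINC02593 (chr1:916865-921016), had 37.3 CPM against 0 counts, at least 194-fold higher, and its neighbour SAMD11 (chr1:923923-944575) had 78.3 against 0.256 CPM, a ratio of 305 (119 to 1122). An exon of SAMD11 overlaps NOC2L, and reads shared by overlapping genes cannot be assigned with certainty because strandedness is not given in the sources used here. BAHCC1 and PTH1R, the receptor for parathyroid hormone, completed the 12 highest by log2 ratio with 0.1 CPM added, at ratios without it of 178 (76.0 to 548) and 52.4 (25.3 to 131), besides TFAP2A, GATA3, GATA2, MSX2, NOG, SMAD6 and the Wnt deacylase NOTUM. Of the 894 higher genes 695 (77.7%) were protein-coding and 133 (14.9%) long non-coding, and of all compared genes 88.9% and 7.53% were.

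Notch-related repressors did not move as a block. Of 5 tested HES and HEY genes, which encode basic helix-loop-helix repressors, 3 were higher and 1 lower. HEY1 had 30.2 against 2.95 CPM, a ratio of 10.2 (7.60 to 14.1), and returned to 2.65 CPM at 300 nM LDN. HES1 had 35.7 against 10.2 CPM, a ratio of 3.51 (2.96 to 4.17). HES6 had 73.2 against 27.1 CPM but 61.7 CPM at 300 nM LDN, and its 2 libraries at 0 h differed, with 33.1 and 88.4 CPM. HEY2 was lower at 7.86 against 20.8 CPM, 2.65-fold (2.23 to 3.15). Among 11 Notch ligands, receptors and modifiers none was higher and 2 were lower, the ligands DLL1 at 1.25 against 3.08 CPM and DLL3 at 2.19 against 5.26 CPM. Over all compared genes 6.0% were higher and 2.19% lower. HES3, which was on no list, had the second lowest ratio where the 2 libraries averaged 10 CPM or more, with 1.29 CPM against 24.5 CPM, 19.0-fold lower (13.6 to 27.4), and 3.0, 5.84, 9.62 and 15.9 CPM with rising LDN.

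Pluripotency factors differed from gene to gene. All 23 genes of this list, not all of which encode transcription factors, passed the filter. Of them 6 were lower, none was higher, and the median log2 ratio was -0.44. POU5F1 (chr6:31164337-31180731), which encodes OCT4, had 2391 CPM with BMP4 and IWP2 and 1473 CPM untreated, a ratio of 1.62 (1.60 to 1.65), and 2319 to 2431 CPM over the LDN doses. SOX2 (chr3:181711925-181714436) had 338 against 348 CPM, a ratio of untreated to treated of 1.03 (0.996 to 1.06). With rising LDN it had 380.1, 405, 422 and 428 CPM, higher at each dose and above both libraries of the comparison. NANOG had 90.6 against 129 CPM, 1.42-fold lower (1.34 to 1.51), and 91.3 to 101 CPM with LDN. For POU5F1 and NANOG the untreated library therefore stood apart from all 5 libraries with BMP4, while SOX2 at 0 nM LDN and in untreated cells differed by no more than counting error. That held for scaling by the library total, and the SOX2 log2 ratio was -0.13 with TMM and -0.14 with DESeq2 scaling, beyond counting error. LIN28A, DNMT3B, DPPA4, L1TD1 and TDGF1, the other defining markers, had log2 ratios of 0.04, -0.48, -0.55, 0.12 and -0.83.

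The 6 lower members of the pluripotency list included the factors PRDM14, OTX2 and SOX3. They also included LRAT, which encodes an enzyme that esterifies retinol, and the long non-coding RNA ESRG. PRDM14, a regulator of the naive and germline programmes, had 14.6 against 73.1 CPM, 5.01-fold lower (4.48 to 5.62), and 25.2, 40.1, 63.1 and 76.3 CPM with rising LDN. OTX2, a homeobox factor of the epiblast and forebrain, had 12.0 against 58.9 CPM, 4.92-fold lower (4.34 to 5.59), and 21.9, 29.1, 44.9 and 49.7 CPM with LDN. Both were higher at every LDN step, and at 300 nM PRDM14 was above its untreated level and OTX2 below its own. ESRG followed the same order, with 589 CPM at 0 nM, 804 CPM at 300 nM and 1447 CPM untreated. FOXD3 had 26.2 CPM with BMP4, 62.7 CPM at 300 nM LDN and 35.6 CPM untreated, so that its untreated level was within the range of the BMP4 libraries. At 4 h FOXD3 had a log2 ratio of -2.51 over 0 h.

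**Figure D3:**
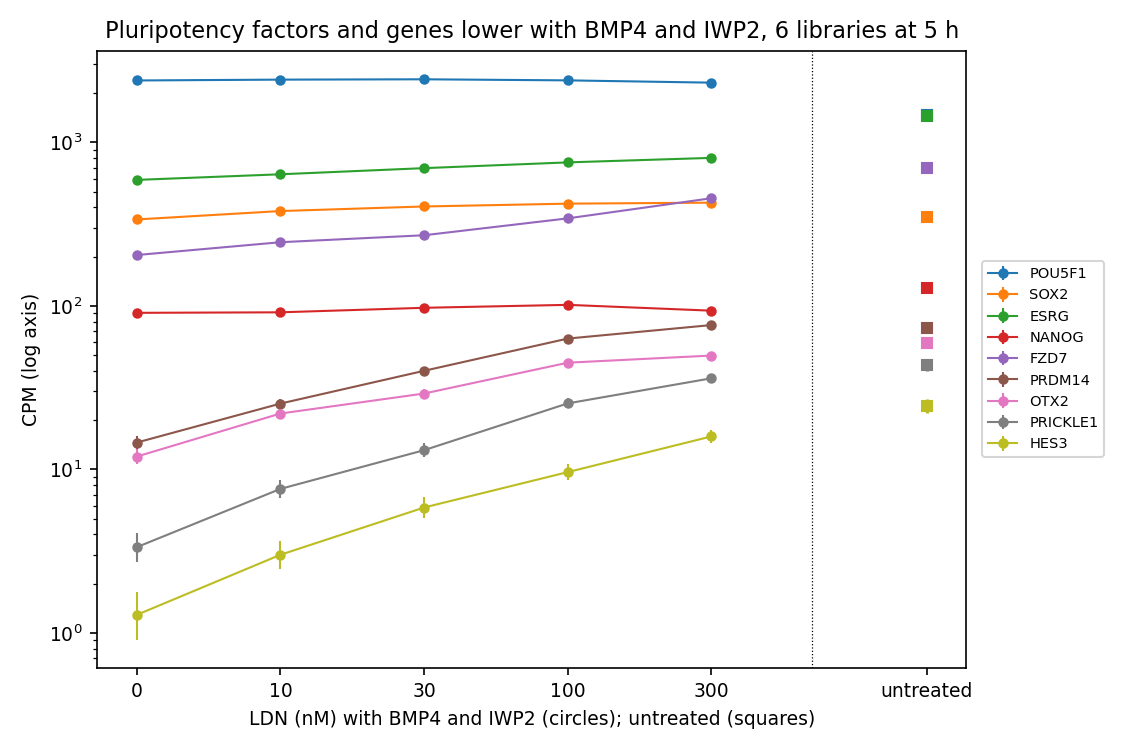
CPM (vertical axis, log scale) of pluripotency factors and of other lower genes in the 5 libraries with BMP4 and IWP2 by LDN dose (circles) and in untreated cells (squares), with 95% counting intervals as bars. POU5F1 is level over the doses at 2319 to 2431 CPM and above its untreated square (1473 CPM, hidden behind that of ESRG at 1447 CPM), whereas PRDM14, OTX2, PRICKLE1 and HES3 rise with every LDN step.

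The next lowest ratio after HES3 was that of PRICKLE1, a planar cell polarity gene. PRICKLE1 (chr12:42456757-42590355), whose exons overlap PPHLN1, had 3.34 CPM against 43.3 CPM, 13.0-fold lower (10.4 to 16.2), and 7.59, 13.1, 25.3 and 36.1 CPM over the LDN doses. In the FPKM values its log2 ratio was -2.25, against -3.66 in CPM. The antisense transcript JAKMIP2-AS1, whose exons overlap JAKMIP2, had 1.70 against 22.2 CPM. SORBS2, an adaptor of the actin cytoskeleton, and P2RY1, a purinergic receptor, had 3.10 against 17.8 CPM and 5.91 against 29.0 CPM. CUZD1 had 7.83 CPM against 35.4 CPM and only 10.6 CPM at 300 nM LDN. A gene without a symbol (ENSG00000267303, chr19:10315471-10320678) had 0 counts against 442 (28.3 CPM) untreated, but it overlaps RAVER1 and FDX2 and had 0 CPM at 100 and 300 nM LDN and at 4 h. SERF1A had 2.33 CPM against 21.5 CPM, but 18.9 to 36.2 CPM with LDN, and it has a near-identical copy, SERF1B. The values of these last genes are uncertain. The 12 largest falls also held ENSG00000275496, at 3.17 against 17.5 CPM and 12.9 to 20.9 CPM with LDN, and with a log2 ratio of -1.13 in FPKM against -2.43 in CPM.

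Genes of the Nodal pathway, which shares SMAD4 with BMP, moved in both directions. Of 9 tested, 2 were lower and 1 higher, beside 2.19% and 6.0% of all compared genes. LEFTY1, a Nodal inhibitor, had 1.60 against 14.0 CPM, 8.77-fold lower (6.36 to 12.3), and 1.74, 3.90, 6.69 and 7.66 CPM with rising LDN. NODAL itself had 1.46 against 5.90 CPM, 4.04-fold lower (2.77 to 5.96), and 1.11 to 2.29 CPM with LDN. LEFTY2 had 5.98 against 8.91 CPM, and since LEFTY1 and LEFTY2 are close in sequence their separate levels are uncertain. FURIN, a protease that processes NODAL and BMP precursors, was higher at 182 against 45.4 CPM, a ratio of 4.01 (3.70 to 4.34).

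Wnt genes were read in cells whose Wnt secretion was inhibited only on the treated side. Of 9 tested targets and feedback genes 1 was higher and 1 lower, beside 6.0% and 2.19% of all compared genes, so these counts are no result about the list. AXIN2, a widely used Wnt target, had 15.3 against 45.3 CPM, 2.95-fold lower (2.61 to 3.33), and 19.4, 25.8, 33.0 and 40.004 CPM over the LDN doses, all with IWP2. NOTUM (chr17:81952507-81961840), which encodes a deacylase that inactivates Wnt proteins, had 34.3 CPM against 0.321 CPM, a ratio of 107 (45.7 to 330.0), and 22.0, 11.8, 4.37 and 0.996 CPM with LDN. Both genes are counted as Wnt feedback, and they stood on opposite sides of the threshold. NOTUM, however, passed the level filter only through the treated library and so had to differ. Among 5 tested ligands WNT3 was higher at 17.6 against 1.79 CPM, a ratio of 9.81 (6.70 to 14.9), and WNT5A lower at 1.11 against 3.78 CPM, 3.40-fold (2.17 to 5.40). The Wnt receptor gene FZD7, not on a list, had 205 CPM against 700.3 CPM, 3.42-fold lower (3.32 to 3.53), and 245, 270.3, 343 and 455 CPM with LDN.

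Markers of primitive streak and endoderm were near 0 in both libraries, with summed levels over 13 genes of 7.03 CPM treated and 7.63 CPM untreated and 10 of the 13 under the filter. TBXT had 1 and 4 counts, and SOX17 0 in both. Of the 3 tested, EOMES was higher with 78 counts (2.71 CPM) against 2 (0.128 CPM), a ratio of 21.2 (5.67 to 178), and FOXA2, an endoderm factor, was lower with 1 count (0.0348 CPM) against 62 (3.97 CPM), 114-fold (19.8 to 4584). EOMES passed the filter only through the treated library and FOXA2 only through the untreated one. Both therefore had to differ, and their calls are no result about the list. Both genes moved in the same directions in the time series. EOMES went from 0.211 and 0.308 CPM at 0 h to 1.39 CPM at 4 h, and FOXA2 from 3.19 and 2.92 CPM to 0.154 CPM. These values too are no result about the list.

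Markers of other cell types were sparse. Over 12 trophoblast markers the summed level was 55.5 CPM treated and 20.8 CPM untreated, most of it TFAP2C and KRT7, and the defining genes ELF5, GCM1, CGA, VGLL1 and PSG3 had 0 counts in both libraries. Of 6 germ cell markers 2 were tested and neither was called, with sums of 23.3 and 23.5 CPM, most of it KIT. The 11 neural ectoderm markers summed to 11.2 and 18.0 CPM. HESX1 (4.49 against 11.9 CPM) and SOX10 (1.67 against 3.65 CPM), whose exons overlap POLR2F, were lower, and FOXD1 (2.71 against 0.577 CPM) higher. FOXD1 passed the level filter only through the treated library and so had to differ. The 12 blood, vessel and fibroblast markers summed to 158 and 175 CPM, and none of the 4 tested was called.

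Of 15 tested FGF and ERK feedback genes 1 was higher and 1 lower, both ligands, which is near the 6.0% and 2.19% of all compared genes. FGF4, an FGF of the epiblast, had 15.03 against 0.961 CPM, a ratio of 15.6 (9.37 to 28.2), and FGF19 5.98 against 17.4 CPM, 2.90-fold lower (2.39 to 3.53). FGF4 was just under 1 CPM untreated and passed the level filter through the treated library. The feedback genes DUSP6, SPRY2 and SPRY4 had log2 ratios of -0.21, 0.43 and 0.11. The receptor gene FGFR3 (chr4:1793293-1808872), not on the list, had 222 CPM against 17.0 CPM, a ratio of 13.1 (11.5 to 14.8), and 206, 175, 128 and 79.0 CPM with LDN.

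Of 16 tested immediate early genes, which respond quickly to growth factors, 3 were higher and 3 lower. MYC had 55.7 against 128 CPM, 2.29-fold lower (2.15 to 2.45), and rose through 71.8, 74.0, 87.6 and 102 CPM with LDN. NR4A1 and EGR1 were lower at 3.44 against 10.8 CPM and 2.89 against 6.15 CPM, and JUND, FOSL2 and KLF4 higher with ratios of 2.16 (2.0 to 2.34), 3.23 (2.47 to 4.28) and 4.15 (2.72 to 6.57). Among 15 SOCS and JAK-STAT genes 3 were higher: SOCS2, a feedback inhibitor of cytokine receptors, at 104 against 11.2 CPM, a ratio of 9.26 (7.95 to 10.8), SOCS3 at 62.8 against 27.4 CPM, and STAT5A at 8.59 against 2.63 CPM, whose exons overlap STAT5B. Of 19 tested glycolysis and hypoxia response genes 2 were higher, 1 lower and 16 neither, with a median log2 ratio of 0.03. Over all compared genes 6.0% were higher and 2.19% lower. EGLN3 and ADM, both hypoxia-responsive, were higher at 117 against 29.2 CPM and 97.5 against 28.1 CPM. The glucose transporter gene SLC2A1 was lower at 144 against 308 CPM. That call was lost in FPKM, where the log2 ratio of SLC2A1 was -0.33 against -1.09 in CPM. Of 19 actin, SRF and YAP targets AMOTL2 alone was called, at 106 against 42.1 CPM, and of 14 p53 targets BTG2 alone, at 4.91 against 1.86 CPM, both counts being near the 6.0% of all compared genes called higher.

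Lists with no called member were the integrated stress response (14 tested), cholesterol synthesis (18), cadherins and EMT regulators (8), keratins (4), germ cell markers (2) and blood, vessel and fibroblast markers (4). The cadherin gene CDH6, which was on no list, was 30.1-fold higher. In cholesterol synthesis all 18 log2 ratios were above 0, or 16 of 18 under each of the other 3 scalings, with a median of 0.58 against 0.10 over all genes, and HMGCS1, the enzyme that makes HMG-CoA, had 1232 CPM against 815 CPM. All 13 mitochondrial protein-coding genes were lower in the treated library, 3 of them past 2-fold, with a median of -0.95. Past 2-fold were 9 of the 13 under TMM or DESeq2 scaling and 7 with mitochondrial transcripts left out of the total. Their summed level was 69896 CPM untreated and 35530 to 37972 CPM in the 5 BMP4 libraries, so it did not follow the LDN dose.

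**Figure D4:**
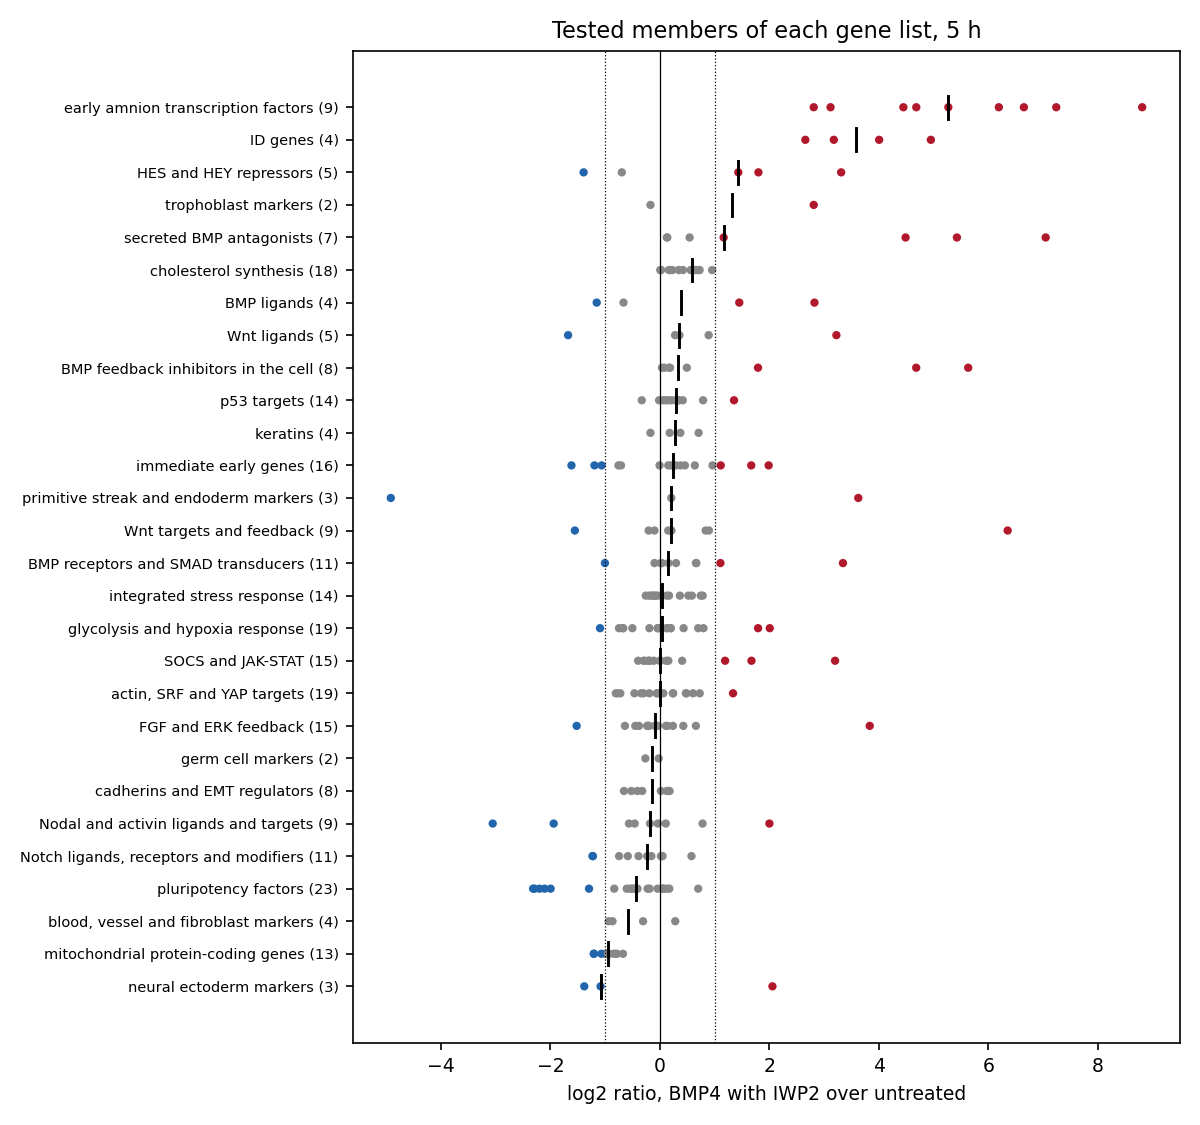
Log2 ratio of BMP4 with IWP2 over untreated at 5 h (horizontal axis) for each tested member of 28 gene lists (rows, number tested in parentheses), with members at least 2-fold higher in red and lower in blue, and black bars at the medians. The 4 ID genes (median 3.59) and the 9 early amnion factors, of which 7 passed the level filter only through the treated library, lie to the right of the dotted line at 1, and the pluripotency factors reach from -2.32 to 0.70.

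Counted in CPM, the 5 largest rises were HNRNPA1, ID1, FASN, POU5F1 and HNRNPA2B1 and the 5 largest falls MT-CO1, MT-CO3, MT-ND4, MT-ATP6 and MT-ND2. CPM is not corrected for transcript length, so these differences are not compared between genes. HNRNPA1, which encodes an RNA-binding protein, had 2997 CPM against 1904 CPM and 2820.3 to 2898 CPM with LDN, and FASN, the fatty acid synthase gene, 2770.1 against 1784 CPM and 2640.2 to 2998 CPM with LDN. MT-CO1, of cytochrome c oxidase, had 9385 CPM against 18372 CPM, and 9660.1 to 9953 CPM with LDN. Among these 10 genes ID1 alone changed along the LDN doses by more than 2-fold.

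The 4 libraries with 10 to 300 nM LDN shared no library with the comparison and differed in the dose of the BMP receptor inhibitor. Of the 894 higher genes 447 (50%) fell at each step from 10 to 300 nM, against 12.2% of all compared genes. Of the 326 lower genes 131 (40.2%) rose at each step, against 10.8% of all. At least a 2-fold fall from 10 to 300 nM was seen for 250 higher genes (28.0%, background 1.96%), and a 2-fold rise for 47 lower genes (14.4%, background 0.403%). Among the higher genes the order was commoner at large ratios. It held for 84.5% of the 58 genes at least 16-fold higher and 72.0% of the 143 between 4- and 16-fold. Of the 693 between 2- and 4-fold it held for 42.6%. Of the lower genes 40.2% of 264 between 2- and 4-fold and 52.2% of 46 between 4- and 16-fold rose at each step. Of the 16 at least 16-fold lower 1 (6.25%) did, below the 10.8% of all compared genes.

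A smaller set of called genes was level over the LDN doses, here meaning a highest value within 1.3-fold of the lowest. It held 156 of the higher genes (17.4%) and 51 of the lower genes (15.6%), while 77.6% of all compared genes were as level. CROCC, a ciliary rootlet gene, had 136 to 138 CPM in all 5 BMP4 libraries and 53.1 CPM untreated, and ANKRD24, which encodes an ankyrin repeat protein, 34.0 to 36.9 CPM against 14.5 CPM. On the other side LMO7 had 7.83 to 9.77 CPM against 19.7 CPM, and THBS2, a thrombospondin, 25.3 to 30.9 CPM against 61.2 CPM. For these genes the untreated library stood apart from all libraries with BMP4 and IWP2. These 4 were chosen after their values were seen. Of the 156 level higher genes 17 (10.9%) were at least 2-fold up at 4 h, against 427 of the other 738 (57.9%). Over all compared genes this share was 4.38%, below that of the level genes. Most level genes had small ratios, and among genes 2- to 4-fold higher the counts were 16 of 150 (10.7%) and 257 of 543 (47.3%). Counting rises of any size at 4 h, the shares were 84.0% of the level and 94.4% of the other higher genes, beside 55.8% of all compared genes. The 1.3-fold limit was set after the values were seen, and at 1.2-fold the set held 81 of the higher and 15 of the lower genes, with 7 of the 81 (8.64%) at least 2-fold up at 4 h. NPTX1, also chosen after its values were seen, ran against the pattern of the lower genes, with 6.37 CPM against 16.2 CPM untreated but 3.24, 2.27, 1.54 and 1.81 CPM with LDN.

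The time series gives the same agents at 4 h in separate cultures and another library type. Of the 894 higher genes 444 (49.7%) were at least 2-fold higher at 4 h than the mean at 0 h, and of the 326 lower genes 84 (25.8%) at least 2-fold lower, against 4.38% and 0.873% of all compared genes. Counting differences of any size, 828 higher genes (92.6%) were above 0 h and 65 below, against 55.8% of all compared genes above. Of the lower genes 264 (81.0%) were below 0 h, against 44.1% of all. Opposite 2-fold differences were found for 9 genes. The share of higher genes also called at 4 h was 83.9% for those between 4- and 16-fold and 87.9% for those at least 16-fold higher. The 0 h cells are not the untreated cells of the 5 h experiment, so the values of a gene differ between the 2 references. AXIN2 for example had 65.4 and 62.6 CPM at 0 h and 45.3 CPM in untreated cells at 5 h.

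**Figure D5:**
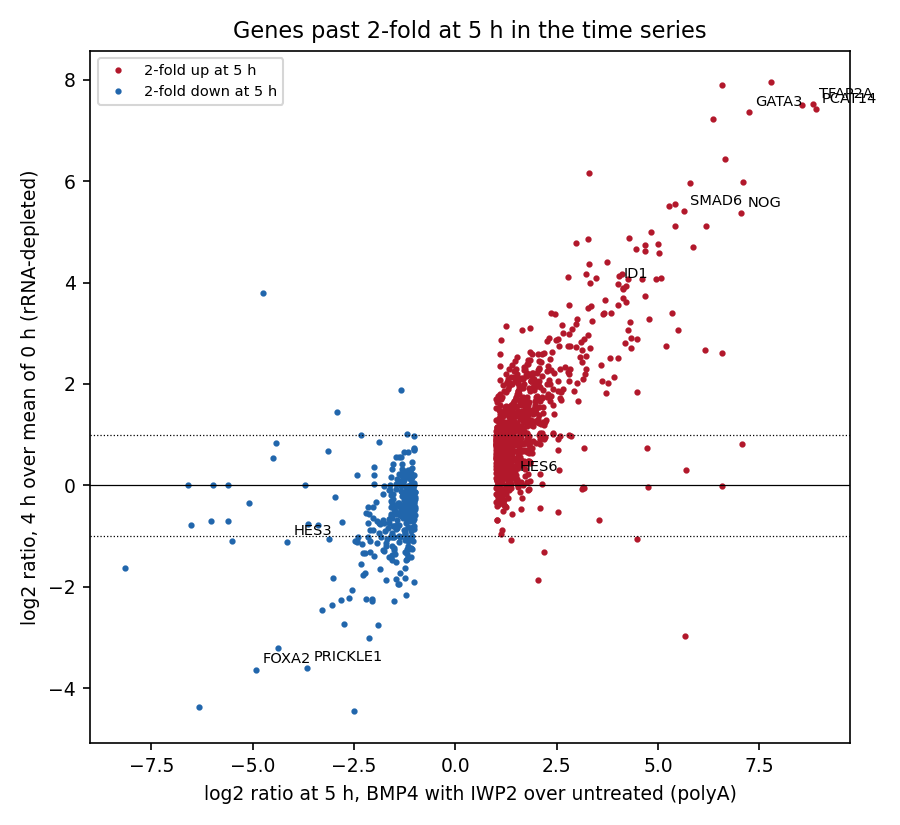
Log2 ratio at 4 h over the mean of 0 h in the rRNA-depleted time series (vertical axis) against the log2 ratio of BMP4 with IWP2 over untreated at 5 h (horizontal axis) for the 894 higher (red) and 326 lower genes (blue). The red points lie mostly above 0 (828 of 894, against 55.8% of all compared genes), with TFAP2A, GATA3 and PCAT14 at the upper right and PRICKLE1 and FOXA2 at the lower left.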

How the data were processed

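Bulk RNA-seq tables of GFP::SMAD4 RUES2 cells were used as deposited. Per the submitters' processing notes, reads were mapped to GRCh38 with STAR 2.7.8a and quantified with RSEM 1.3.3, so the deposited counts are RSEM expected counts, which are whole numbers and not scaled for depth. The deposited FPKM values, scaled by the authors for gene length and depth, served as an alternative only. Strandedness and annotation release are not given in the sources used here. Rows of 5 reporter sequences were left out of totals, and 0 columns were left unmatched to a sample.

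CPM was computed on each library's total over human genes (15600645 to 33989489 at 5 h, 37956244 to 71331540 for 0 h and 4 h). Genes averaging 1 CPM or more in the pair of libraries were compared as log2 ratios with 0.1 CPM added. Intervals for ratios are exact binomial (Clopper-Pearson) and cover counting error only, at 95%. A 0 was set to a floor of 3 counts. With 1 library a side no test was run, and calls mean at least 2-fold. The calculation was tested on simulated data. TMM factors came from edgeR 4.0.16 and size factors from DESeq2 1.42.0 (R 4.3.3), without their tests. Calculations and figures used scipy 1.17.1, matplotlib 3.10.9, pandas 2.3.3 and numpy 2.4.6 under Python 3.11.15. Positions, biotypes and overlaps are from GENCODE 44, and 14875 of 14893 compared genes were found there. Start-site windows are from RefSeq.

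The comparison, the 28 gene lists and the rule for naming genes were chosen with earlier results of these data known. Named were list members past 2-fold, the most abundant members of each list, the 12 largest rises and falls averaging 10 CPM or more, the 5 largest in CPM, genes the study names and those nearest the threshold. Some members counted in the lists are not reported here by name. FGFR3, FZD7 and genes marked in the text were added after their values were seen. Alternatives covered scaling, the FPKM table, depth, the filter, the pseudocount and the call, and, added after seeing the data, each library at 0 h left out.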

Additional observations from a re-analysis of the deposited data

Results flagged for a closer look

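Opposite differences of at least 2-fold at 5 h against untreated and at 4 h against 0 h were found for 9 of the 1220 called genes, and the difference between both comparisons was not tested. Higher at 5 h and lower at 4 h were 5 genes, ENSG00000256861 (log2 ratio 5.68 at 5 h, with 144 counts against 0), ENSG00000256966 (4.47, with 61 counts against 0), the readthrough gene ARL2-SNX15 (2.20), the pseudogene FABP5P7 (2.03) and ENSG00000267001 (1.36). Lower at 5 h and higher at 4 h were 4 genes, CHRNA4 (-1.20), a nicotinic receptor subunit, ENSG00000267125 (-1.33), ENSG00000269243 (-2.91) and the pseudogene SLC2A3P1 (-4.74, with 0 counts against 40). CHRNA4 had 1.57 CPM with BMP4 and IWP2 and 3.72 CPM untreated at 5 h, and 7.68 CPM at 4 h against 4.14 and 3.39 CPM at 0 h. Apart from CHRNA4 and FABP5P7, each overlaps exons of a gene with at least 1 CPM in these libraries, such as VPS33A and DIABLO for ENSG00000256861 and PANK3 for SLC2A3P1, and the part of shared reads was not tested.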

How the results depend on the processing

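The counts of called genes depended most on how low values were handled. Without a filter 3338 genes were higher and 1155 lower, with 960 and 149 also called at 4 h. With a mean of at least 2.5 CPM 591 were higher and 210 lower. Where the counting interval had to lie wholly past 2-fold 408 were higher and 151 lower, of which 78 rose at each LDN step. Under scaling by TMM or DESeq2 766 or 746 were higher and 396 or 415 lower. All 326 lower genes were kept under both, and the higher genes were a subset. With the treated library thinned to the untreated depth 91.4% of the higher and 87.4% of the lower calls were kept, and with FPKM 83.1% and 81.9%. Leaving out either library at 0 h, 447 to 474 higher and 76 to 93 lower genes were also called at 4 h. Of 83 named genes past 2-fold, 83 kept their call under TMM, DESeq2 and CPM without mitochondrial transcripts. EGR1 lost it after thinning, MYC, SLC2A1, SMAD3 and SOX10 with FPKM, and CHRD, EGR1, SMAD3 and SOX10 with 0.5 CPM added, and none changed direction in these alternatives. With FPKM the log2 ratios of GATA3, SAMD11 and LINC02593 were 6.03, 6.06 and 6.61, against 7.24, 7.78 and 8.55 in CPM, and that of BAHCC1 6.05 against 7.08. Fitted ratios of genes near 0 on one side moved with the amount added, such as 6.50 to 12.1 for TFAP2A between 0.5 and 0.01 CPM. The sign of the median differed between scalings for 2 of 28 lists, the integrated stress response and glycolysis and hypoxia response. The causes were not tested. No paired analysis was possible because each side of the comparison has 1 library. Depth limits genes with few untreated counts, such as NOG (2 counts), whose ratio has an interval spanning more than 10-fold.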

Other observations

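Among the 40 largest rises at an average of 10 CPM or more were genes on no list. COL9A2, a collagen IX chain, had 109.7 CPM with BMP4 and IWP2, 72.6, 42.6, 22.3 and 11.7 CPM over 10 to 300 nM LDN and 2.63 CPM untreated, a ratio of 41.7 (30.7 to 58.3). CDH6, a cadherin, had 28.9 against 0.961 CPM, a ratio of 30.1 (18.1 to 54.0), and 31.9, 27.0, 23.1 and 13.4 CPM with LDN, so at 10 nM it was not lower than at 0 nM. COCH, whose exons overlap STRN3, had 138 against 10.7 CPM, CBLN1 85.1 against 5.13 CPM and FAM20A 82.6 against 4.36 CPM. The forkhead gene FOXI3 had 102 against 13.8 CPM and 177 CPM at 4 h, against 21.4 and 19.9 CPM at 0 h.

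Among the falls the homeobox gene IRX2 had 12.0 CPM with BMP4 and IWP2, 17.5, 23.9, 41.9 and 55.8 CPM over the LDN doses and 45.6 CPM untreated, and in the time series 95 and 94.2 CPM at 0 h and 14.0 CPM at 4 h. LRAT, which esterifies retinol, likewise passed its untreated level of 35.4 CPM at 100 and 300 nM LDN, with 36.0 and 46.3 CPM. DNMT3B, the de novo DNA methyltransferase, had 1394 CPM at 0 nM LDN, 2329.7 CPM at 300 nM and 1939 CPM untreated. These genes were chosen after their values were seen.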
